A study of Mus musculus with 8 samples.

Results

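Beta-cell identity transcription factors are the 10 regulators Pdx1, Nkx6-1, Nkx2-2, Neurod1, Mafa, Isl1, Pax6, Insm1, Foxa2 and Rfx6, taken by name from the 24421 genes counted in each sample. Islet cells of 8-week-old male C57BL/6J mice were profiled by single-cell RNA sequencing. There were 4 samples of control mice and 4 of mice that had 50% partial pancreatectomy (PPTx) 2 days earlier, an operation that removes pancreas tissue and after which remaining beta cells are known to replicate. Control mice had no operation, and the sources name no transgene. The splenic side was resected, so the operation and the region of pancreas that the islets came from cannot be told apart. Islets of more than a single mouse could be pooled in a sample, and samples are the replicates here.

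These factors form the regulatory circuit that gives an islet cell its hormone. Pdx1, Nkx6-1 and Mafa are known as the factors closest to beta-cell identity: Pdx1 and Mafa bind the insulin promoter, and Nkx6-1 holds beta cells apart from alpha cells. Nkx2-2, Neurod1, Isl1, Pax6, Insm1, Foxa2 and Rfx6 are known to work in several islet cell types during development and in adult life. Replicating beta cells are known for lower levels of some maturity genes, which is the question behind the comparison of cells with and without replication transcripts.

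Of 1240 cells, 1232 were kept, with 2005 or more UMIs (unique molecular identifiers, each counting a captured RNA molecule) in a cell and 227439 to 1580152 UMIs in a sample. Cells were classed by the hormone that held at least 2/3 of their insulin, Gcg, Ppy and Sst UMIs, which gave 952 beta-like, 113 alpha-like, 129 PP-like and 12 delta-like cells. The classes were checked against their markers outside the 8 hormone genes named below: of the 4 classes, the class of the list had the highest pooled level for 8 of 9 beta-cell, 7 of 11 alpha-cell, 4 of 6 PP-cell and 6 of 9 delta-cell markers. Detection alone did not tell the classes apart, since beta-like cells also had UMIs of 12 of 12 alpha-cell and 8 of 8 PP-cell markers. Alpha-like cells were 18.3% of control and 2.53% of PPTx cells, and PP-like cells 5.96% and 13.8%. Levels are given as CPM, the UMIs of a gene per 1000000 UMIs outside 8 hormone genes (Ins1, Ins2, Gcg, Sst, Ppy, Pyy, Iapp and Ghrl), since the hormone genes held 57.4% to 67.2% of the UMIs in beta-like sums but 45.9% to 51.2% in alpha-like sums. Values per 1000000 UMIs of all genes are called all-UMI CPM. A sum needed 3 cells, which left 8 samples for beta-like, 7 for alpha-like, 7 for PP-like and 2 for delta-like cells.

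Start-site sequences are given for Nkx6-1, which was higher in beta-like than in alpha-like and PP-like cells, and for Nkx2-2 and Isl1, which were lower than in PP-like cells. The 250 bases before each start are from RefSeq on GRCm38.p6, 5′ to 3′ on the strand of the gene, with CANNTG (the E box that Neurod1 and its relatives bind) and TAAT on either strand (the core that homeodomain factors bind) in capitals.
Nkx6-1, chr5:101664712-101664961, minus strand: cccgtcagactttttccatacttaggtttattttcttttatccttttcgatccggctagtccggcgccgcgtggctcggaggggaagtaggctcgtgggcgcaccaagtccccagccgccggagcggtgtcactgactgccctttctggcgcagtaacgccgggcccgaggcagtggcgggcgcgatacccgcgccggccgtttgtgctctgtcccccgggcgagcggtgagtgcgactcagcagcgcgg
Nkx2-2, chr2:147186403-147186652, minus strand: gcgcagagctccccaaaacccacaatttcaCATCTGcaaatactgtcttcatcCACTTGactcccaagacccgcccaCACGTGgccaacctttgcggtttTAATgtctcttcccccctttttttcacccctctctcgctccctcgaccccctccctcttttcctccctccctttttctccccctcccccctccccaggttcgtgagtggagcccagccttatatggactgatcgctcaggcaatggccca
Isl1, chr13:116309689-116309938, minus strand: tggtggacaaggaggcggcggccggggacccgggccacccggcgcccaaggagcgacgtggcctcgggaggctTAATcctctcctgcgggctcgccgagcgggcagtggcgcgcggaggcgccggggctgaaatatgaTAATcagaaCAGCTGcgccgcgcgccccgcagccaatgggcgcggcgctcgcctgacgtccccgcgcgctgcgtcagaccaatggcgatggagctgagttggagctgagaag

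The Nkx6-1 window held neither motif, the Nkx2-2 window held 3 CANNTG and 1 TAAT, and the Isl1 window held 1 CANNTG and 2 TAAT. Of 32851 start windows of this length, 66.2% held CANNTG and 54.9% held TAAT, so a match is a common event and is no more than a description. The Nkx2-2 window lies inside the annotated span of that gene, at an internal start. Windows were found for 8 of the 10 genes; Mafa and Insm1 had no entry. GC content was 65.2% for Nkx6-1, 56.4% for Nkx2-2 and 71.2% for Isl1, against a median of 52.4% over all windows.

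By RefSeq, 5 of the 10 genes lie on chromosome 2: Neurod1 (chr2:79452637-79456636), Pax6 (chr2:105668896-105698410), Insm1 (chr2:146221997-146225020), Nkx2-2 (chr2:147176485-147195434) and Foxa2 (chr2:148042877-148046969). Nkx6-1 (chr5:101659184-101664711) and Pdx1 (chr5:147270097-147275848) lie on chromosome 5. Rfx6 is at chr10:51677760-51730429, Isl1 at chr13:116298270-116309688 and Mafa at chr15:75745501-75748321. Pax6os1 and Nkx2-2os are counted in columns of their own and are antisense to Pax6 and Nkx2-2. The sources used here do not say whether reads were counted by strand. Pax6os1 gave 69 UMIs in beta-like cells against 1139 for Pax6.

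Pdx1 and Mafa, the activators of the insulin promoter, were hardly counted in any class. Pdx1 gave 42 UMIs over all 952 beta-like cells, 1 in PP-like cells and none in alpha-like cells. In beta-like cells its level was 0, 37.5, 7.20 and 16.4 CPM in control replicates 1 to 4 and 20.9, 20.5, 22.2 and 15.97 CPM in PPTx replicates 1 to 4. Both genes were below the count filter of the fits, so they were tested by exact sign flips over samples on all-UMI CPM. Pdx1 was higher in beta-like than in alpha-like cells in 6 of 7 samples and at 0 in both in control replicate 1. The exact p was 0.03125, the smallest possible with that tie. Pdx1 was higher than in PP-like cells in 7 of 7 samples (exact p = 0.0156, the smallest 7 samples allow). Beta-like sums held 196203 to 1270924 UMIs, alpha-like sums 15231 to 240143 and PP-like sums 48552 to 221530. With 0 and 1 Pdx1 UMIs in those smaller sums, these tests cannot tell a difference in level from the difference in depth. Mafa gave 2 UMIs in beta-like cells and none in the other classes (exact p = 0.5, the smallest p it allows), so no difference was detectable at this depth. In cells thinned to 2700 UMIs each, Pdx1 had a UMI in 15 of 858 beta-like cells, or 1.75% (95% exact binomial interval 0.982% to 2.87%), and Mafa in 0 of 858 (the exact interval ends at 0.429%, and the limit of 3 cells that a count of 0 allows is 0.350%). The intervals and limits cover counting error only. Nothing can be read about either protein from these counts, and why so few UMIs were captured was not tested.

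The class comparison asks which of the factors set beta-like cells apart from the other hormone classes. Against alpha-like cells, 2 of the 8 members tested were higher in beta-like cells and 1 was lower by edgeR's quasi-likelihood test on sums with sample as a block, at an adjusted p (Benjamini-Hochberg) under 0.05. Over all 2557 genes tested, 18.7% were called higher and 12.2% lower. Against PP-like cells 4 members were higher and 2 lower, beside 16.5% and 14.6% of all genes. The members' counts were not tested against those shares.

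**Figure D1:**
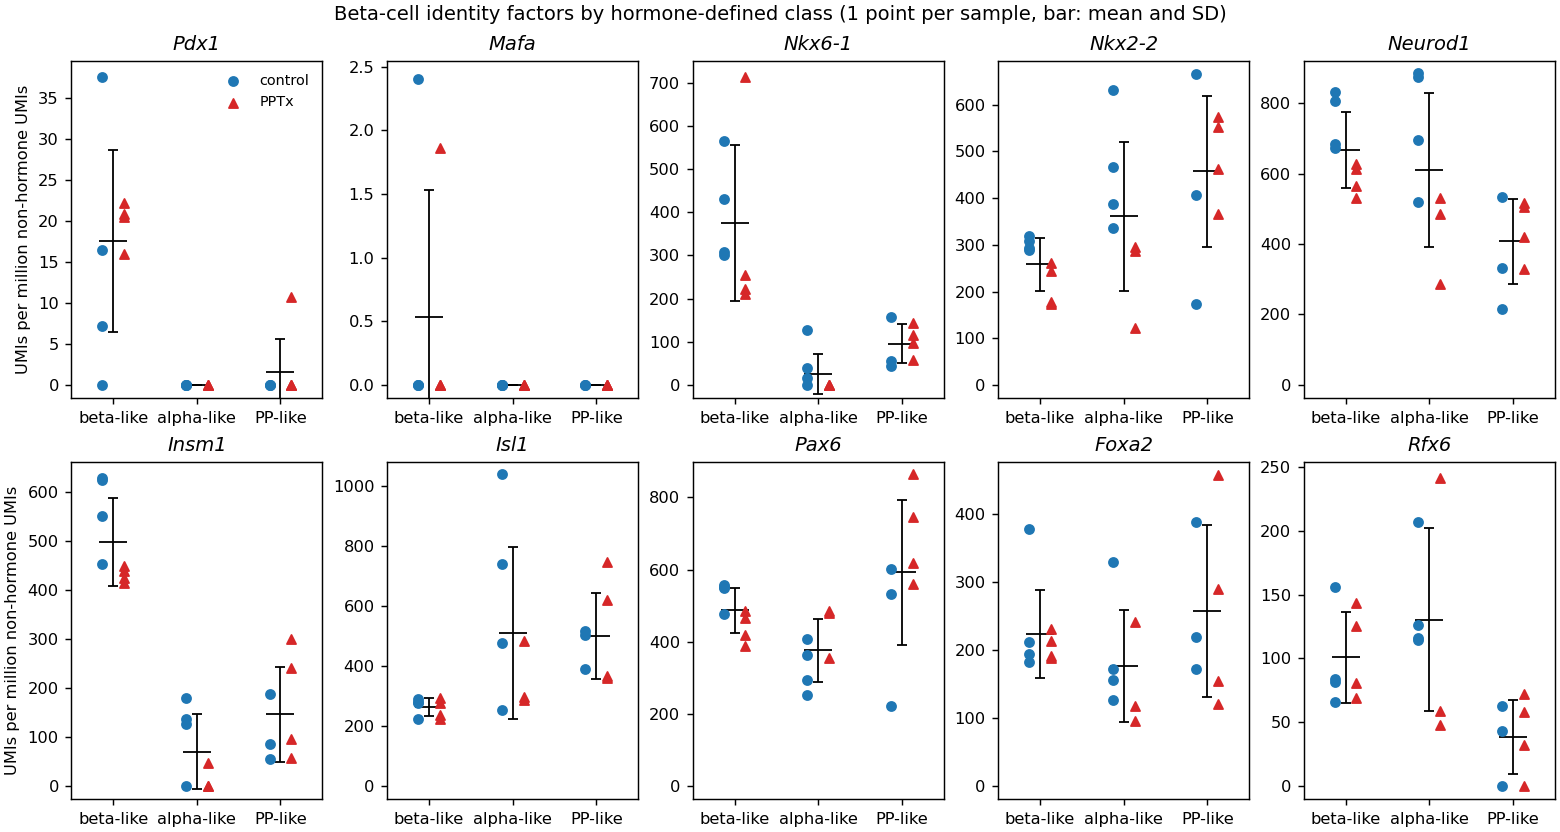
Level of each factor in CPM, per 1000000 UMIs outside 8 hormone genes (vertical axis) in beta-like, alpha-like and PP-like cells (horizontal axis). Each point is a sample of at least 3 cells, circles are control and triangles PPTx, and bars give the mean and SD over samples. Nkx6-1 and Insm1 are higher in beta-like cells in every sample that has both classes, and Isl1 is lower in every one.

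Nkx6-1, the homeodomain repressor that marks beta cells, had the largest fold change of the 8 in both comparisons. In beta-like cells it was at 308, 300.3, 430 and 565 CPM in control replicates 1 to 4 and at 223, 210.3, 255 and 713 CPM in PPTx replicates 1 to 4. In alpha-like cells it was at 126 CPM in control replicate 1 on a single UMI, at 16.4 CPM in control replicate 3, at 38.8 CPM in control replicate 4 and at 0 in the other 4 sums. In PP-like cells it lay between 43.1 and 157 CPM with a median of 96.8 CPM. The beta-like range did not overlap the range of either other class. The log2 fold change of beta-like over alpha-like cells was 4.204 ± 0.44 (SE, edgeR adjusted p = 1.85e-20), and over PP-like cells 1.68 ± 0.27 (adjusted p = 6.98e-09). The order of the means was beta-like (376 ± 181 CPM, SD, n = 8), PP-like (95.6 ± 45.4, n = 7) and alpha-like (25.96 ± 46.7, n = 7), and the ranges of the latter pair overlap.

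Insm1, a zinc-finger repressor of the endocrine programme, was at 454 to 629 CPM in the control and 415 to 450 CPM in the PPTx beta-like sums. In alpha-like cells it was between 0 and 180 CPM, with a median of 47.9 CPM, and in PP-like cells between 55.5 and 301 CPM, with a median of 96.6 CPM. Each beta-like sum was above each sum of those classes. The log2 fold change was 2.095 ± 0.27 over alpha-like cells (SE, edgeR adjusted p = 3.78e-13) and 1.44 ± 0.23 over PP-like cells (adjusted p = 5.09e-09). Control replicate 3 held 22 of the 31 Insm1 UMIs of alpha-like cells, and without it the former value was 3.04 ± 0.39 (adjusted p = 2.98e-13). The 12 delta-like cells gave 14 Insm1 UMIs, beside 31 in 113 alpha-like cells.

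Isl1, a LIM-homeodomain factor of all islet endocrine cells, went the other way. It was steady in beta-like cells, at 224, 275, 290.5 and 279 CPM in control replicates 1 to 4 and 275, 223, 236 and 293 CPM in PPTx replicates 1 to 4. In alpha-like cells it ranged from 253 to 1037 CPM (median 475) and in PP-like cells from 361 to 745 CPM (median 501). Beta-like cells were lower in 7 of 7 samples for each pair of classes. The log2 fold change was -0.98 ± 0.21 against alpha-like cells (SE, edgeR adjusted p = 1.65e-05) and -0.77 ± 0.19 against PP-like cells (adjusted p = 4.38e-04). On cells thinned to equal depth the difference from PP-like cells was -0.50 ± 0.29 and no longer called (adjusted p = 0.177), nor was it without the count filter (-0.51 ± 0.24, adjusted p = 0.192). Without that filter the median log2 fold change over all genes against PP-like cells was 0.40, beside 0.02 with it.

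Nkx2-2, a homeodomain factor needed for beta cells and shared with other islet cells, was at 258 ± 56.5 CPM in beta-like cells (SD, n = 8), 361 ± 160.1 CPM in alpha-like cells (n = 7) and 457 ± 162 CPM in PP-like cells (n = 7). It was lower in beta-like than in PP-like cells in 6 of 7 samples, with a log2 fold change of -0.84 ± 0.20 (SE, edgeR adjusted p = 1.68e-04). On thinned cells this was -0.64 ± 0.30 (adjusted p = 0.0866) and without the count filter -0.57 ± 0.24 (adjusted p = 0.131), neither of them called. The median over all genes was 0.40 without that filter and 0.02 with it. Against alpha-like cells the Nkx2-2 value was -0.37 ± 0.23 (adjusted p = 0.218), and it was called with a leading hormone of 4/5 (-0.56 ± 0.23, adjusted p = 0.0334). In delta-like cells Nkx2-2 gave 1 UMI in 12 cells, and 0 in the 2 sums of 3 cells that could be tested.

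Neurod1, the basic helix-loop-helix activator of insulin, was at 666 ± 107 CPM in beta-like and 611 ± 219 CPM in alpha-like cells, and the log2 fold change of 0.17 ± 0.18 was not called (edgeR adjusted p = 0.529). Its direction depended on the scale: beta-like cells were higher in 4 of 7 samples by CPM and in 1 of 7 by all-UMI CPM. In PP-like cells it was at 407 ± 119 CPM, below beta-like cells in 7 of 7 samples, with a log2 fold change of 0.72 ± 0.18 (adjusted p = 6.03e-04). Rfx6, a winged-helix factor that acts early in islet development, was at 101 ± 35.5 CPM in beta-like, 130.5 ± 71.6 CPM in alpha-like and 38.3 ± 29.2 CPM in PP-like cells. It was higher in beta-like than in PP-like cells in 7 of 7 samples (log2 fold change 1.39 ± 0.44, adjusted p = 7.55e-03), on 12 UMIs in PP-like cells, and without PPTx replicate 2 the value was 1.07 ± 0.52 (adjusted p = 0.117). Against alpha-like cells the value was -0.29 ± 0.37 (adjusted p = 0.597).

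Pax6 and Foxa2, which act across the endocrine cells of the islet, were called in neither comparison as reported. Pax6 was at 487 ± 63.0, 376 ± 87.1 and 592 ± 200.2 CPM in beta-like, alpha-like and PP-like cells, with log2 fold changes of 0.50 ± 0.21 (SE, edgeR adjusted p = 0.0609) and -0.22 ± 0.18 (adjusted p = 0.373). Foxa2 was at 224 ± 64.2, 177 ± 82.4 and 258 ± 127 CPM, with log2 fold changes of 0.12 ± 0.27 (adjusted p = 0.796) and -0.12 ± 0.24 (adjusted p = 0.743). Pax6 gained a call against alpha-like cells without PPTx replicate 3 (0.57 ± 0.23, adjusted p = 0.0449) and with 1 cell per sum (0.48 ± 0.21, adjusted p = 0.0438), and against PP-like cells with 10 cells per sum (-0.43 ± 0.17, adjusted p = 0.0436). The ranges of the 3 classes overlap for both genes.

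Delta-like cells could be tested in 2 control samples with 3 cells each. There 5.48% of genes were called (103 higher and 37 lower in beta-like cells, but 9 and 62 by DESeq2), the median log2 fold change over all genes was 0.65, and 1 member, Nkx2-2, was called against sums at 0. Pooled over 12 cells, the delta-like class gave 13 Neurod1, 10 Isl1, 10 Pax6, 5 Rfx6, 3 Foxa2 and 1 Nkx6-1 UMIs. These values are too few to order the class.

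Insulin UMIs were 0.855% of the UMIs in alpha-like and 0.963% in PP-like cells, against 58.3% in beta-like cells. At the ratio of each factor to insulin in beta-like cells, those insulin UMIs would bring 1.001 Nkx6-1 and 1.21 Insm1 UMIs to alpha-like cells, where 5 and 31 were counted. In PP-like cells they would bring 1.45 Nkx6-1 and 2.28 Insm1 UMIs, where 29 and 54 were counted. For the other 6 members tested the counts in alpha-like cells were 29 to 166 UMIs, against 0.233 to 1.73 by this arithmetic. In thinned cells Nkx6-1 had a UMI in 254 of 858 beta-like cells (29.6%, exact interval 26.6% to 32.8%), 10 of 111 PP-like cells (9.01%, 4.40% to 15.9%) and 4 of 92 alpha-like cells (4.35%, 1.20% to 10.8%). Nkx2-2 had a UMI in 21.8% of beta-like, 38.0% of alpha-like and 35.1% of PP-like cells, and Isl1 in 21.6%, 48.9% and 32.4%. Insm1 had one in 35.4%, 16.3% and 17.1%, and Neurod1 in 46.0%, 59.8% and 30.6%. Pax6 stood at 40.1%, 34.8% and 48.6%, Foxa2 at 19.3%, 25% and 20.7%, and Rfx6 at 9.44%, 19.6% and 1.80%. These thinned shares are per UMI of any gene, hormones included. They are pooled over cells, and control replicate 3 gave 51 of the 92 alpha-like cells. As means over samples, Pax6 was at 39.2%, 44.8% and 46.3% in beta-like, alpha-like and PP-like cells. Its beta-like share was then below its alpha-like share. In the same order Insm1 was at 35.9%, 8.17% and 11.7%, Nkx6-1 at 30.5%, 2.61% and 7.1%, and Nkx2-2 at 22.7%, 37.9% and 38.4%. Rfx6 was at 9.85%, 20.3% and 1.16%. A thinned beta-like cell held UMIs of a median of 2 of the 10 factors, and 73 of 858 cells held none.

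The lists of related genes give the setting. Of 32 tested genes known as targets or maturity genes of beta cells, 20 were higher and 2 lower in beta-like than in alpha-like cells, with a median log2 fold change of 1.39 beside 0.06 over all genes. Against PP-like cells 20 were higher and 4 lower (median 1.34 beside 0.02). They include G6pc2, a glucose-6-phosphatase subunit (4.76 ± 0.21 over alpha-like cells, edgeR adjusted p = 3.13e-108), and Prlr, the prolactin receptor (5.53 ± 0.35, adjusted p = 7.48e-55). Of 12 tested genes of other islet fates, 1 (Sst) was higher and 11 were lower against alpha-like cells, and none was higher and 8 were lower against PP-like cells. That list holds Gcg, Ppy and Sst, and the list of targets holds Ins1 and Ins2. These hormones set the classes, so their calls are not independent of the class rule.

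Among 13 tested islet transcription factors outside the 10, 2 were higher and 4 lower against alpha-like cells. Mlxipl, the glucose-sensing factor ChREBP, was higher by a log2 fold change of 2.66 ± 0.32 (SE, edgeR adjusted p = 2.08e-15), and by 3.44 ± 0.48 on thinned cells. Of 23 tested cofactors and partners, 3 were higher and 2 lower against alpha-like cells, and 1 and 4 against PP-like cells.

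By correlation of log2 CPM over the 24 sums of samples and classes, the genes most like Nkx6-1 were Mia3, Bace2 and Defb1 (r = 0.87, 0.86 and 0.86), and those most like Insm1 were Cyb5b, Defb1 and Nkx6-1 (r = 0.88, 0.84 and 0.84). Nkx2-2 was closest to Tmx4, Hint2 and D17Wsu92e (r = 0.94, 0.90 and 0.89). Neurod1 was closest to Maob, Camk2n1 and Insrr, Isl1 to Pfdn5, Imp3 and Rpl9, Pax6 to Gaa, Commd6 and Enpp2, Foxa2 to Ogdh, Prr13 and Npepps, and Rfx6 to Robo2, Slc38a2 and Ids, with r from 0.67 to 0.81. The sums share libraries and differ in depth, so these are descriptions.

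Beta-like cells with at least 1 UMI of Top2a or Cdk1, which act in mitosis, were compared with the other beta-like cells of the same sample. There were 1, 1, 4 and 4 such cells in control replicates 1 to 4 and 7, 17, 9 and 5 in PPTx replicates 1 to 4, so 6 samples entered the test. Of 8 members tested, none was called higher and Nkx6-1 was called lower, beside 3.88% of all 2626 genes higher and 1.98% lower. The balance of those calls over all genes turned with the processing, from 102 higher and 52 lower as reported to 174 and 338 without the count filter and 13 and 32 on thinned cells.

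**Figure D2:**
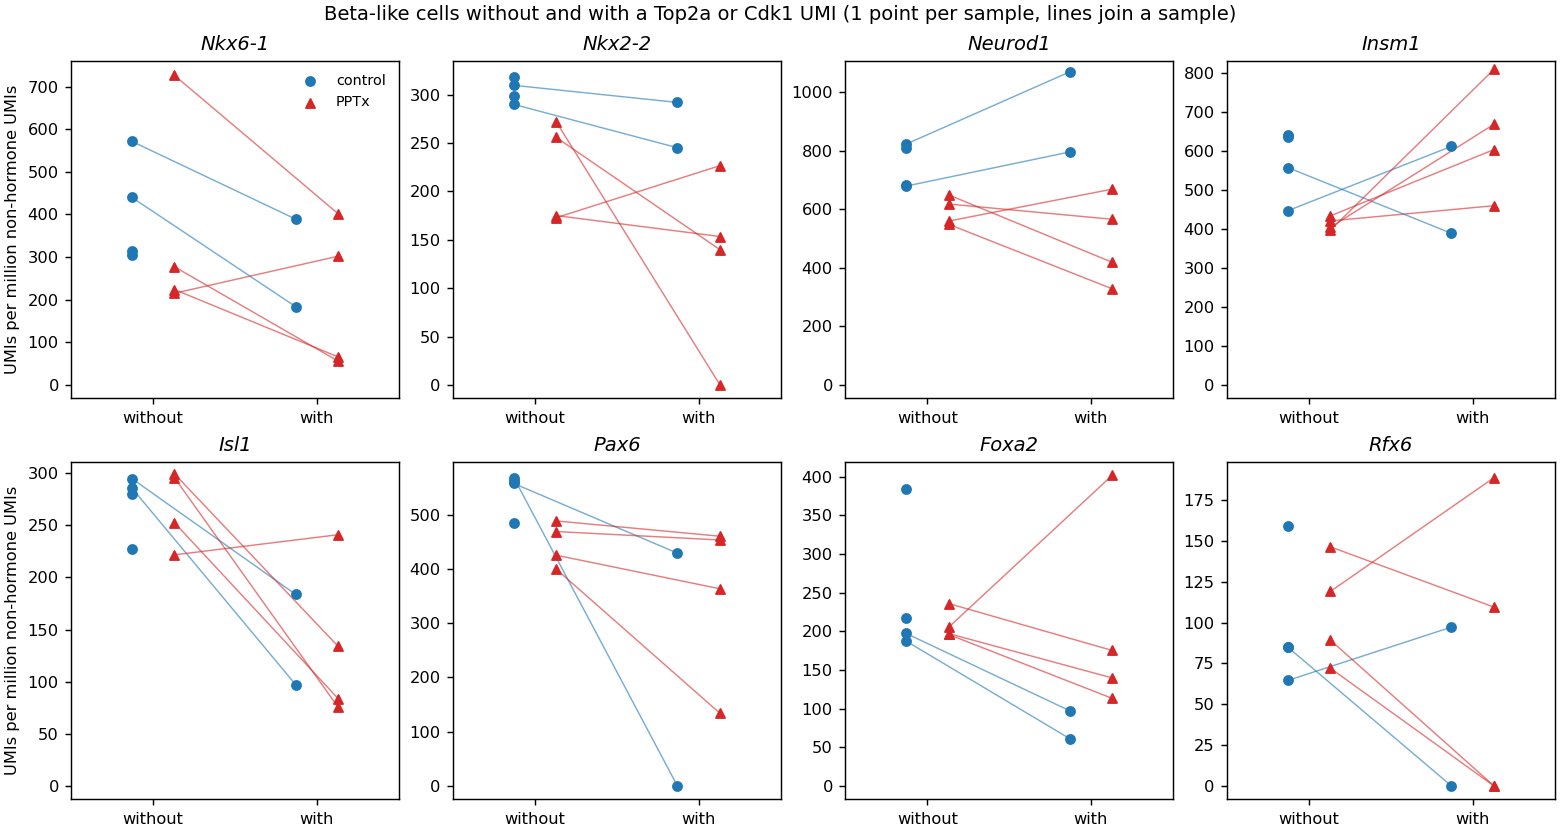
Level of the 8 factors tested, in CPM, per 1000000 UMIs outside 8 hormone genes (vertical axis), in beta-like cells without and with a Top2a or Cdk1 UMI (horizontal axis). Lines join the 2 sums of a sample, circles are control and triangles PPTx. Nkx6-1 is lower with such UMIs in 5 of 6 samples and Insm1 is higher in 5 of 6.

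Nkx6-1 was at 184 and 389 CPM in the cells with Top2a or Cdk1 UMIs of control replicates 3 and 4 and at 302, 65.7, 55.9 and 402 CPM in those of PPTx replicates 1 to 4. In the remaining beta-like cells of the same samples it was at 440 and 571 CPM and at 215, 224, 277 and 726 CPM. It was lower with such UMIs in 5 of 6 samples, and PPTx replicate 1 was the exception. The log2 fold change was -0.97 ± 0.32 (SE, edgeR adjusted p = 0.0400), on 23 UMIs. The call was lost with DESeq2 (adjusted p = 0.152) and when any of 5 of the 6 samples was left out (all but PPTx replicate 1), with values between -1.02 and -0.79. Without PPTx replicate 1 the value was -1.41 ± 0.36 (edgeR adjusted p = 4.24e-03), and without the count filter -1.51 ± 0.35 (adjusted p = 1.46e-03). Without that filter the median log2 fold change over all genes was -0.63, beside -0.08 with it.

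Isl1 was at 184 and 97.3 CPM with and at 295 and 286 CPM without such UMIs in control replicates 3 and 4. In PPTx replicates 1 to 4 it was at 75.5, 241, 83.8 and 134 CPM with and 296, 222, 252 and 299 CPM without. It was lower in 5 of 6 samples, with a log2 fold change of -0.85 ± 0.35 that was not called (SE, edgeR adjusted p = 0.148). Without PPTx replicate 2, whose value went the other way, it was -1.44 ± 0.46 (adjusted p = 0.0385). Insm1 was higher in 5 of 6 samples, at 389 to 810 CPM with such UMIs, with a log2 fold change of 0.44 ± 0.22 that was not called (adjusted p = 0.273). Pax6 (-0.39 ± 0.24), Foxa2 (-0.48 ± 0.36), Rfx6 (-0.49 ± 0.51), Nkx2-2 (-0.35 ± 0.34) and Neurod1 (-0.21 ± 0.22) were not called, with adjusted p from 0.446 to 0.709. Pax6 was lower in 6 of 6 samples by CPM and in 4 of 6 by all-UMI CPM, and without the count filter it was called (-0.92 ± 0.29, adjusted p = 0.0421). In that setting the median over all genes was -0.63. Foxa2 was lower in 5 of 6 samples on both scales, and Nkx2-2 in 5 of 6 by CPM and 3 of 6 by all-UMI CPM.

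Of 33 tested targets and maturity genes, 7 were lower with Top2a or Cdk1 UMIs and none higher, with a median log2 fold change of -0.35 beside -0.08 over all genes. They include G6pc2 (-0.83 ± 0.18, edgeR adjusted p = 2.56e-04) and Ucn3, a peptide of mature beta cells (-0.71 ± 0.20, adjusted p = 0.0112). The Ucn3 call was lost without control replicate 3 (-0.66 ± 0.22) or control replicate 4 (-0.59 ± 0.20), and with cells thinned to equal depth (-1.01 ± 0.33, adjusted p = 0.0554). Without the count filter G6pc2 was at -1.36 ± 0.20 and Ucn3 at -1.24 ± 0.24, beside a median of -0.63 over all genes. None of 6 other islet factors and 18 partners was called. Of 7 tested genes of other islet fates none was higher and 3 were lower, the hormones Sst (-3.10 ± 0.30, edgeR adjusted p = 4.63e-23), Ppy (-2.18 ± 0.22, adjusted p = 6.95e-20) and Pyy (-2.39 ± 0.26, adjusted p = 1.52e-18). Sst and Ppy are among the hormones that set the classes, so their calls are not independent of the class rule. Pooled over cells with such UMIs, Sst held 0.0059% and Ppy 0.068% of all UMIs, against 0.0484% and 0.139% without. Gcg went the other way, at 0.46% against 0.029%. The Pyy call was lost with at least 2 UMIs of Top2a and Cdk1 (-1.44 ± 0.53) and with no sample block (-1.69 ± 0.51). Without PPTx replicate 2 Ppy was at -2.84 ± 0.25 and Pyy at -4.17 ± 0.32. Other values moved with this split: immune markers summed to 408 all-UMI CPM with such UMIs (9 of 12 detected) and to 107 without (11 of 12), stellate markers to 177 (6 of 8) and 88.9 (8 of 8), and Gcg held 1.71% of the UMIs of the 17 cells of PPTx replicate 2 and 0.0182% of its other beta-like cells. Their part in the result was not tested. With the doublets called by Scrublet left out, Nkx6-1 was at -1.05 ± 0.32 (adjusted p = 0.0289).

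The operation was compared in beta-like cells between 4 PPTx and 4 control samples. None of the 8 members tested was called by edgeR (0.288% of 5904 genes were) or by DESeq2. By unadjusted p under 0.05, 3 members passed with edgeR and 2 with DESeq2, beside 9.42% and 5.15% of all genes. The fitted change was below 0 for 7 of 8 members, with a median log2 fold change of -0.27 beside -0.01 over all genes. The directions of the members were not tested against those of all genes.

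**Figure D3:**
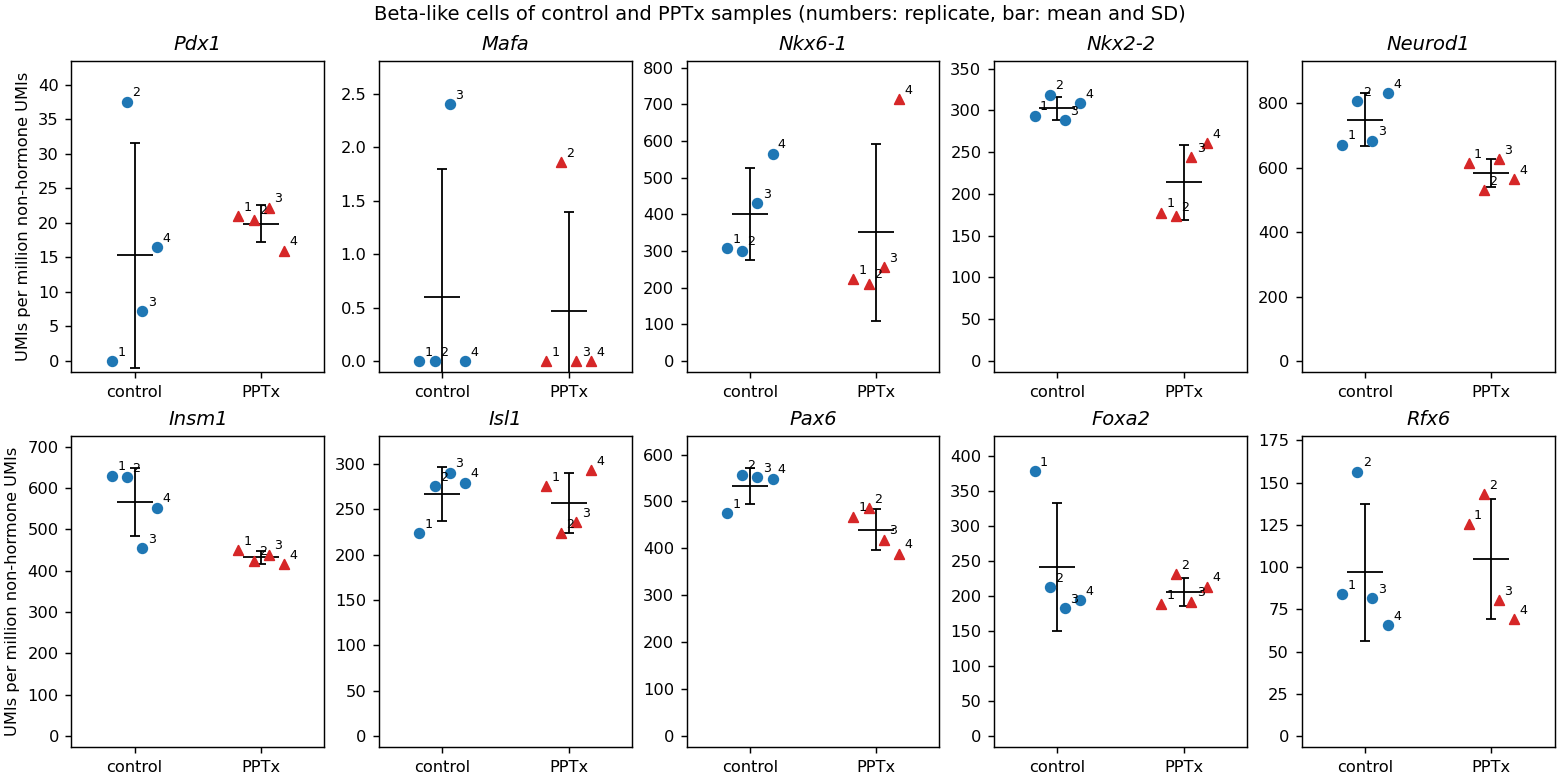
Level of each factor in beta-like cells in CPM, per 1000000 UMIs outside 8 hormone genes (vertical axis) in control and PPTx samples (horizontal axis). Numbers beside the points give the replicate, and bars the mean and SD of 4 samples. Nkx2-2, Neurod1 and Insm1 do not overlap between the groups, and Nkx6-1 of PPTx replicate 4 stands at 713 against 210.3 to 255 in the other PPTx samples.

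Nkx2-2 was at 294, 319, 288 and 309 CPM in control replicates 1 to 4 and at 178, 173, 244 and 261 CPM in PPTx replicates 1 to 4. Each PPTx sample was below each control sample. The log2 fold change was -0.49 ± 0.19 (SE, edgeR p = 0.0137, adjusted p = 0.391), and the exact permutation test on the level alone gave p = 0.0286, the smallest 4 against 4 samples allow. Neurod1 was at 671, 807, 684 and 831 CPM in control replicates 1 to 4 and at 614, 530.4, 627 and 564 CPM in PPTx replicates 1 to 4 (log2 fold change -0.34 ± 0.15, adjusted p = 0.496). Insm1 was at 629, 625.5, 454 and 552 CPM in control replicates 1 to 4 and at 450, 424, 438 and 415 CPM in PPTx replicates 1 to 4 (-0.33 ± 0.16, adjusted p = 0.516).

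The groups of these 3 genes do not overlap, beside 3.2% of all tested genes that were lower and 2.66% that were higher in every PPTx sample. The scale mattered: by all-UMI CPM the groups of Nkx2-2 stayed apart, those of Neurod1 and Insm1 overlapped, and 1.07% of genes were lower and 4.88% higher in every PPTx sample. The hormone genes held 63.6% to 67.2% of control and 57.4% to 65.4% of PPTx UMIs in these sums.

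Nkx6-1 varied most between samples of a group, with a chi-square of 25.5 per degree of freedom over counting noise, against 0.473 to 3.60 for the other 9 members. PPTx replicate 4 was at 713 CPM and control replicate 4 at 565 CPM. The order of the replicate numbers from lowest to highest was the same in both groups, and whether the numbers stand for a shared batch was not tested. The log2 fold change was -0.29 ± 0.30 (SE, edgeR adjusted p = 0.829), without PPTx replicate 4 it was -0.85 ± 0.21 (adjusted p = 0.0813), and without control replicate 4 it was -0.05 ± 0.32. In thinned cells Nkx6-1 had a UMI in 44.6% of the beta-like cells of PPTx replicate 4 and in 18.6% to 26.5% of those of the other PPTx samples. Pax6 was at 476 to 557 CPM in control and 389 to 486 CPM in PPTx samples (-0.26 ± 0.15, adjusted p = 0.622). Isl1 (-0.08 ± 0.18), Foxa2 (-0.07 ± 0.21) and Rfx6 (0.26 ± 0.28) had adjusted p from 0.840 to 0.954. Pdx1 was at 15.3 ± 16.3 CPM in control and 19.9 ± 2.71 CPM in PPTx samples (SD, n = 4 each, exact permutation p = 0.429 on all-UMI CPM).

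Among the related lists, none of 13 islet factors, 32 partners and 42 targets was called, and in the list of other fates Ppy, the hormone of PP cells, was higher in PPTx (1.94 ± 0.39, edgeR adjusted p = 0.0288). That call was lost with DESeq2 (adjusted p = 0.0968), and by edgeR without control replicate 1, 2 or 3 or PPTx replicate 1, with values of 1.65 to 2.07, while without control replicate 4 it was kept at 2.58 ± 0.36. It was also lost with a leading hormone of 1/2 (0.91 ± 0.52) or 4/5 (1.40 ± 0.39). Summed PP-cell markers, 8 of 8 detected in both groups, were at 464 to 1920 all-UMI CPM in control and 2341 to 4215 in PPTx beta-like sums. Summed immune markers, 8 of 12 detected in control and 11 of 12 in PPTx, were at 21.2 to 81.8 in control and 19.7 to 511 in PPTx sums. Summed epsilon-cell markers, 3 of 4 detected in both groups, were at 17.2 to 40.2 in control and 15.1 to 5830 in PPTx sums. A single cell of PPTx replicate 1 held 4588 of the 4597 Ghrl UMIs of PPTx beta-like cells, with 31 insulin UMIs, and the class rule counted it as beta-like because Ghrl is not among the hormones that set the classes. That cell is left out when the leading hormone must hold 10% of UMIs, where no member was called and the changes of the 8 members ranged from -0.50 to 0.26. Stellate markers (8 of 8 detected in both groups) were at 0 to 109 in control and 1.04 to 294 in PPTx sums, acinar markers (9 and 11 of 12) at 6.35 to 61.2 and 9.34 to 186, and ductal markers (7 and 6 of 8) at 104 to 214 and 186 to 341. The part of these markers in the members' values was not tested.

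In alpha-like cells Neurod1 was the single member that passed the count filter, at -0.79 ± 0.40 (SE, edgeR adjusted p = 0.446, 0.806% of 248 genes called), over 3 PPTx sums of 4 to 7 cells. The genes called in alpha-like cells were the PP-cell hormones Ppy (2.59 ± 0.29, adjusted p = 1.88e-08) and Pyy (2.27 ± 0.25, adjusted p = 1.68e-08), with Ppy at 15730 ± 7492 CPM in control and 92710 ± 39480 CPM in PPTx sums (SD, n = 4 and 3). The Ppy call was lost with a leading hormone of 4/5 (1.70 ± 0.57) and the Pyy call without the count filter (1.93 ± 0.47), and their part in the members' values was not tested. The groups of Neurod1 overlapped by CPM and stood apart by all-UMI CPM (exact permutation p = 0.0571). Nkx2-2 was at 336 to 633 CPM in control and 121 to 295 CPM in PPTx alpha-like sums, ranges that do not overlap, on 12 UMIs in the PPTx sums (exact permutation p = 0.0571 on all-UMI CPM). Of 2597 genes with at least 20 UMIs in the alpha-like sums, a minimum chosen after the values were seen, 3.47% were lower and 2.7% higher in every PPTx sum by CPM, and 4.04% and 2.16% by all-UMI CPM. In PP-like cells none of the 5 members tested was called, beside 0.156% of 640 genes, and Nkx2-2 was at 0.23 ± 0.37 there. The gene called was Iapp, the beta-cell peptide amylin (3.19 ± 0.43, edgeR adjusted p = 1.03e-04), a call lost with a leading hormone of 1/2 (2.28 ± 0.52), and its part in the members' values was not tested. Pax6 was higher in every PPTx than in every control PP-like sum by all-UMI CPM (exact permutation p = 0.0286, the smallest 3 against 4 samples allow), while by CPM the groups overlapped (exact permutation p = 0.114) and the log2 fold change was 0.53 ± 0.33 (adjusted p = 0.828). Of 3296 genes with at least 20 UMIs in the PP-like sums, 4.28% were higher and 2.15% lower in every PPTx sum by all-UMI CPM, and 3.76% and 2.88% by CPM. The test of the difference between classes called none of 8 members, for alpha-like (0% of 3788 genes called) or PP-like cells (0.0705% of 2838 genes) against beta-like cells. By unadjusted p under 0.05 with edgeR it passed 1 member and 4.86% of all genes for alpha-like cells, and 3 members and 6.77% of all genes for PP-like cells. DESeq2 called no member and passed none at an unadjusted p under 0.05 in either. Pax6 had the smallest of these p in PP-like cells, with a difference of 0.85 ± 0.33 (adjusted p = 0.650).

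**Figure D4:**
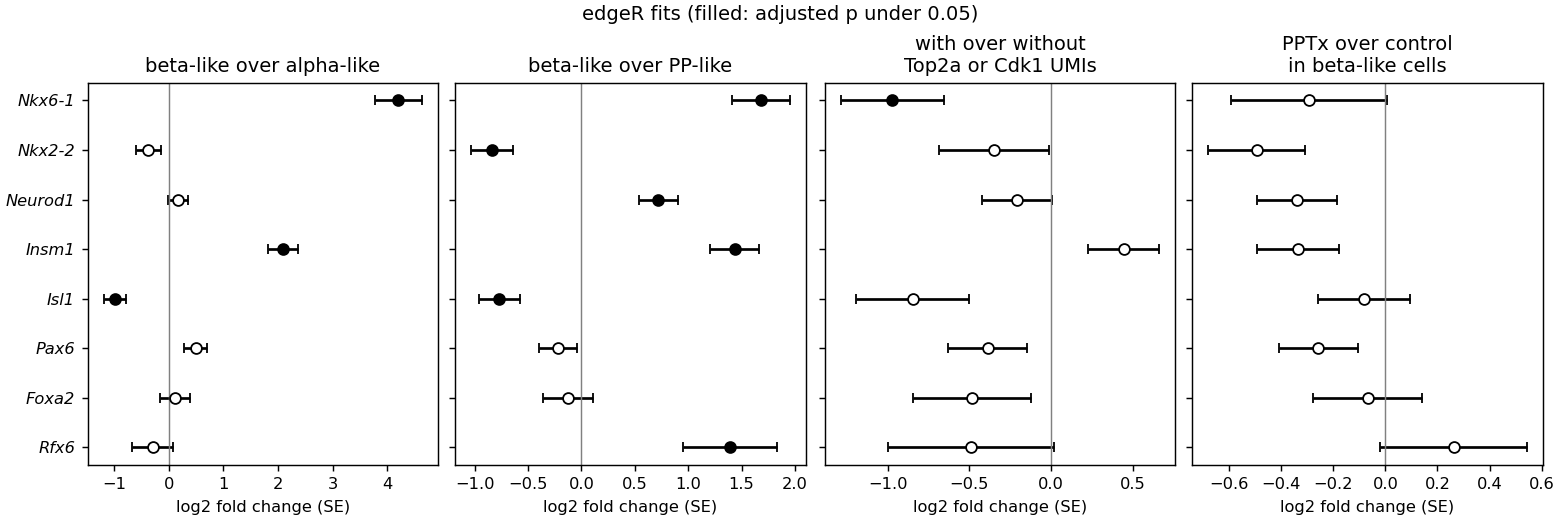
Log2 fold change and SE from edgeR (horizontal axis) of the 8 factors tested (vertical axis) in the comparisons of classes, of cells with Top2a or Cdk1 UMIs, and of PPTx with control beta-like cells. Filled points have an adjusted p under 0.05. Nkx6-1 is at 4.204 over alpha-like and 1.68 over PP-like cells, and no point is filled for PPTx.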

How the data were processed

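UMI counts per gene and cell of 4 control and 4 PPTx samples were used. The authors deposited raw counts, made with Cell Ranger on the mm10 genome (bcl2fastq is named in the submitters' processing notes). The labels name a ddSEQ isolator together with a Chromium kit. The 10 factors, the classes and the gene lists were chosen with earlier results of these data known.

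Kept cells had between 100 and 3000 genes and at most 20000 UMIs. A barcode shared by 2 samples (1 case) was treated as 2 cells. Counts were summed per sample and class, filtered by filterByExpr, scaled by TMM and tested by quasi-likelihood in edgeR 4.0.16 (R 4.3.3), with DESeq2 1.42.0 as an alternative. Sample was a block wherever cells of the same samples were compared. SE is the absolute log2 fold change divided by the square root of F. Members below the filter had exact tests in Python 3.11.15. Tests were two-sided with a threshold of 0.05 on the adjusted p. The edgeR fits were first tried on simulated counts, with a single dispersion for all genes and changes in well-counted genes alone. That trial does not cover members with few UMIs or with a wide spread between samples. Scrublet (scanpy 1.11.5, expected rate 0.06, run with exact nearest neighbours) called 84 doublets, 72 of them beta-like, which were kept except where stated. Thinning to 2700 UMIs left out 94 beta-like cells (26 control, 68 PPTx). Genes named are the members, the called genes of each list (at most 6 by smallest p), class markers, and for each member the 3 most correlated genes. The scale outside hormone genes was chosen after the hormone shares were seen. Sources do not say that samples came from separate litters or days. The p-values for PPTx within a class measure the spread between these samples. Where sample was a block, they measure how the differences between classes of cells vary over these samples. No 2 samples of a group agreed within sampling noise (chi-square per degree of freedom 1.88 to 7.20). Columns of other samples numbered 0. Alternatives are under the closing section. Some genes of the related lists are counted but not reported by name here.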

Additional observations from a re-analysis of the deposited data

Results flagged for a closer look

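Of 47 groups of 4 samples tested for a sample far from the others, 8 had one. In 4 of the 47 groups a single sample held all the UMIs, so those 4 met the rule by construction, and the rate of about 1 in 20 that chance gives applies to the other 43, where 4 had one. Nkx6-1 in beta-like cells of PPTx replicate 4 stood at 713.4 CPM, against 210.3 to 255.2 CPM in the other PPTx samples. Control replicate 4 was also the highest of its group for Nkx6-1, at 565.2 CPM. Foxa2 in beta-like cells of control replicate 1 was at 377.6 CPM, against 182.5 to 212.7 CPM in the other controls, and Pax6 in the same sample was at 475.5 CPM, against 548.8 to 556.7 CPM. Rfx6 in alpha-like cells of control replicate 2 was at 207.4 CPM, against 114.6 to 126.5 CPM. The 4 by construction rest on a single UMI in 1 sample with 0 in the others: Mafa in beta-like cells of control replicate 3 (2.401 CPM) and of PPTx replicate 2 (1.861 CPM), Mafa in the cells with Top2a or Cdk1 UMIs of PPTx replicate 2 (21.9 CPM), and Pdx1 in PP-like cells of PPTx replicate 2 (10.75 CPM). The Mafa UMI of PPTx replicate 2 is the same UMI in both groups. No cause was tested for any of them.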

How the results depend on the processing

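Nkx6-1 and Insm1 remained higher in beta-like than in alpha-like and PP-like cells, past the threshold, under each alternative that gave a value, and Isl1 remained lower than in alpha-like cells. Nkx6-1 fell below the count filter, and had no value, on thinned cells and with 1 cell per sum. No member was called for PPTx in beta-like cells under any alternative run. A few UMIs per sample limit Pdx1, Mafa and all values in delta-like cells, the cells with Top2a or Cdk1 UMIs and the PPTx alpha-like cells. The PPTx effect in delta-like cells was not tested, with too few samples. Where values moved below, the cause was not tested.

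Without the count filter, the genes called numbered 1345 against alpha-like cells (1027 higher, 318 lower; 792 with it, 479 and 313), 1358 against PP-like cells (998 and 360; 795 with it, 422 and 373), 512 for cells with Top2a or Cdk1 UMIs (154), 92 for PPTx in beta-like (17) and 1 in alpha-like cells (2). On thinned cells they were 335, 288, 45 and 10 in the first 4 of these, and 72 against delta-like cells (140 as reported). With 1 cell per sum they were 353, 348 and 73 in the first 3. Against delta-like cells DESeq2 called 71 genes, all deposited cells gave 246, and leaving out doublets gave 35. For PPTx in alpha-like cells a leading hormone of 1/2 gave 4 genes, while 4/5, or leaving out hormone genes, gave 1. For PPTx in PP-like cells a leading hormone of 1/2 or leaving out hormone genes gave 0 genes (1 as reported), and for the difference between PP-like and beta-like cells DESeq2 called 1 (2 as reported).

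Members called against delta-like cells (1 as reported) were 0 with DESeq2, without the filter, without hormone genes, on thinned cells or without doublets, and 2 with a leading hormone of 1/2 or all deposited cells. Against PP-like cells 2 members were called on thinned cells (6 as reported). For cells with Top2a or Cdk1 UMIs 3 members were called without the filter, Nkx6-1 and Pax6 among them. There were 0 with DESeq2, on thinned cells, with 1 cell per sum, with at least 2 UMIs of Top2a and Cdk1, with at least 2 UMIs of 10 replication markers and with no sample block. Nkx6-1 lost its call there, at values from -1.18 to -0.88.

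Directions turned for values that were not called. Against alpha-like cells Neurod1 was at -0.054 with a leading hormone of 4/5 and -0.12 with 10 cells per sum, and Foxa2 at -0.088 and -0.38. Without the filter, Pax6 was at 0.045 and Foxa2 at 0.13 against PP-like cells, Insm1 was at -0.078 in cells with Top2a or Cdk1 UMIs, and Foxa2 was at 0.10 for PPTx in PP-like cells. Over all genes the medians there were 0.40, -0.63 and 0.31 in the same comparisons, beside 0.02, -0.08 and 0.01 as reported. Rfx6 was at -0.12 for PPTx in beta-like cells on thinned cells. For PPTx in PP-like cells Isl1 was at -0.019 with a leading hormone of 4/5 and -0.0043 when that hormone held 10% of UMIs, an alternative chosen after seeing the data.

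Leaving out a sample at a time, the genes called ranged from 30 to 147 against delta-like cells, from 1 to 18 for PPTx in beta-like cells (1 without control replicate 1 or PPTx replicate 1, 2 without control replicate 2, 11 and 10 without control replicates 3 and 4), from 2 to 9 in alpha-like cells (9 without PPTx replicate 3) and from 1 to 3 for the difference between PP-like and beta-like cells (1 without PPTx replicate 2). Members called ranged from 0 to 1 against delta-like cells and for cells with Top2a or Cdk1 UMIs. Foxa2 ranged from -0.0078 to 0.57 against alpha-like cells, from -0.22 to 0.020 against PP-like cells, from -0.19 to 0.11 for PPTx in beta-like cells and from -0.22 to 0.23 in PP-like cells. There Nkx2-2 ranged from -0.073 to 0.61, Neurod1 from -0.021 to 0.68 and Isl1 from -0.078 to 0.22.

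Same-numbered control and PPTx samples deviated together with r from 0.0374 to 0.143, and the other pairs with r from -0.0976 to 0.0618. Control replicate 2 correlated more with PPTx replicate 3 (r = 0.0618) than with PPTx replicate 2. Whether the numbers stand for a pairing or a shared batch was not tested. The methods state no pairing, so the PPTx fits as reported have no replicate block. With a replicate block 36 genes were called for PPTx in beta-like cells (17 as reported) and 3 in PP-like cells (1 as reported). In PP-like cells Isl1 was then at -0.023 and Foxa2 at 0.15, and no member was called in any class.

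Shares of beta-like cells with a UMI, as means over samples, were 4.05% for Pdx1, 49.8% for Nkx6-1, 41.5% for Nkx2-2, 68.8% for Neurod1, 0.155% for Mafa, 39.9% for Isl1, 61.0% for Pax6, 58.6% for Insm1, 36.2% for Foxa2 and 19.9% for Rfx6 at the cells' own depth, each above its thinned value (1.65%, 30.5%, 22.7%, 46.2%, 0%, 21.2%, 39.2%, 35.9%, 20.6% and 9.85%).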
